A study of Rattus norvegicus with 18 samples.

Results

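The subject is 10 acute phase proteins of the rat liver, A2m, Lbp, Lcn2, Orm1, Hp, Crp, Apcs, Itih4, Cp and Hpx, followed as transcripts through dosing with 2 hepatotoxic compounds. They were chosen by name, as classic plasma proteins of the response to injury, and each was read from the RefSeq-matched probe of its gene with the highest mean over the 18 arrays. All 10 were among the 10914 genes that could be tested, out of 15645 genes matched on the array. Acute phase proteins are made mainly by hepatocytes and secreted into plasma, where their levels change after infection, burns or tissue damage. Interleukin-6 and its relatives drive many of them through STAT3 and C/EBP factors, and interleukin-1 and tumour necrosis factor act through NF-kappaB and C/EBP factors. Positive acute phase proteins rise in that response, negative ones such as albumin fall, and in the rat alpha-2-macroglobulin and alpha-1-acid glycoprotein are known as strong responders whereas C-reactive protein changes little.

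The livers came from male F344/NSlc rats bought at 5 weeks of age, 1 rat per array and 3 rats per group. One compound was N-nitrosodiethylamine (DEN), a genotoxic liver carcinogen, dosed at 4 mg/kg with saline as its vehicle. The other was carbon tetrachloride (CCl4), a solvent that injures hepatocytes, dosed at 100 mg/kg with corn oil as its vehicle. Rats received a gavage of 5 mL/kg every day for 28 or 84 days. The 6 groups were thus DEN day 28, CCl4 day 28, control day 28, DEN day 84, CCl4 day 84 and control day 84. Controls carry the word vehicle in their titles but are described as untreated rats on basal diet in the protocol, and the design text speaks of 28 days only. Saline and corn oil were not given to controls as separate groups, so vehicle and compound cannot be told apart.

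Upstream sequences are shown for Lcn2 and Orm1, which were higher after CCl4, and for Itih4, which was lower, because all 3 hold a short motif of the factors named above. The windows are the 250 bases before the annotated gene start in RefSeq on build GRCr8, at chr3:36081781-36082030 on the minus strand for Lcn2, chr5:81788259-81788508 on the plus strand for Orm1 and chr16:6086735-6086984 on the plus strand for Itih4. Each is written 5′ to 3′ along its gene, and capitals mark a match to TTGCNNAA (a C/EBP type motif) or TTCNNNGAA (a STAT type motif) on either strand.
Lcn2: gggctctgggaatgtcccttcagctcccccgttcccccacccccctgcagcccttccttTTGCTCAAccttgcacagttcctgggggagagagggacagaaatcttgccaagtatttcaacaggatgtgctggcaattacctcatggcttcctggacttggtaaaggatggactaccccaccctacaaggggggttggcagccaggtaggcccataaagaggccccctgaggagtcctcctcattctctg
Orm1: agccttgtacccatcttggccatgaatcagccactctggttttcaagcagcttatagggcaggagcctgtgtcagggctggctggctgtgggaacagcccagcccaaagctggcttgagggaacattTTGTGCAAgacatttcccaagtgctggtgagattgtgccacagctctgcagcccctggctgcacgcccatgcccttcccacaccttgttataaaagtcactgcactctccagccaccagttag
Itih4: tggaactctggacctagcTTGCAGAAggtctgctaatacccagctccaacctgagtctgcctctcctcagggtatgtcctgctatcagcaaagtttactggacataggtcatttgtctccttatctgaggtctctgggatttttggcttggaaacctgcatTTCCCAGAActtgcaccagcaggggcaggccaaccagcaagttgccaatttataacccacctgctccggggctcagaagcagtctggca

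Promoter windows of 300 bases, from 250 before to 50 after the start, were listed for 7 of the members, Lcn2, Orm1, Crp, Apcs, Itih4, Cp and Hpx, among 33469 such windows of rat genes. TTGCNNAA was found in 5 of the 7, Lcn2, Orm1, Itih4, Cp and Hpx, and in 10.6% of all windows. The 5 included transcripts that rose and transcripts that fell in the livers. TTCNNNGAA was found in Itih4 alone, at -89 to -81 bases from the start, and in 8.87% of all windows. The narrower forms TTCCNGGAA and TTGCGCAA, each contained in one of those 2 motifs, were in none of the 7 and in 1.27% and 0.17% of all windows. A match is a run of letters and was not tested as a binding site.

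A level below is the log2 processed signal of a probe minus the 75th percentile of its array, so 0 is the 75th percentile and each unit is a doubling. Levels of different probes are not comparable with each other. Changes are differences of group means in log2 units with their standard error (SE) from one limma fit over all 18 arrays, and a gene was called where its p-value, adjusted by the Benjamini-Hochberg method over 10914 genes, was under 0.05. Hepatocyte markers were well above background on every array (8 of 8 genes), so the livers carried the label's defining transcripts. Their summed linear level was 3810 to 3920 in DEN, 2090 to 2790 in CCl4 and 4540 to 4680 in control rats at day 28, and 2330 to 2720 in DEN, 2370 to 3010 in CCl4 and 3860 to 4020 in control rats at day 84. The sums of treated rats lay below those of controls in all 4 comparisons, of the 8 markers 3 were called lower for DEN and 8 for CCl4 at day 28, and 7 for each compound at day 84, and their part in the changes below was not tested. Of all genes tested, 7.19% (DEN) and 33.6% (CCl4) were called lower at day 28, and 31.1% and 36.3% at day 84. In bulk liver fewer hepatocytes and less RNA per hepatocyte cannot be told apart. Pearson correlations between arrays of a group were 0.976 to 0.996, and the array of CCl4 day 28 replicate 2 stood farthest from its group, by a median of 0.24 log2. The scaling sets the sign of small changes. When arrays were scaled to 8 spike-in probes instead, the median of all genes against control moved to 0.36 from -0.04 for DEN at day 28, to 0.74 from -0.06 for CCl4 at day 28, to 0.63 from -0.08 for DEN at day 84 and to 0.45 from -0.10 for CCl4 at day 84. In CCl4 livers at day 28, 94.2% of all called genes were then higher, against 43.7% with the 75th percentile.

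**Figure D1:**
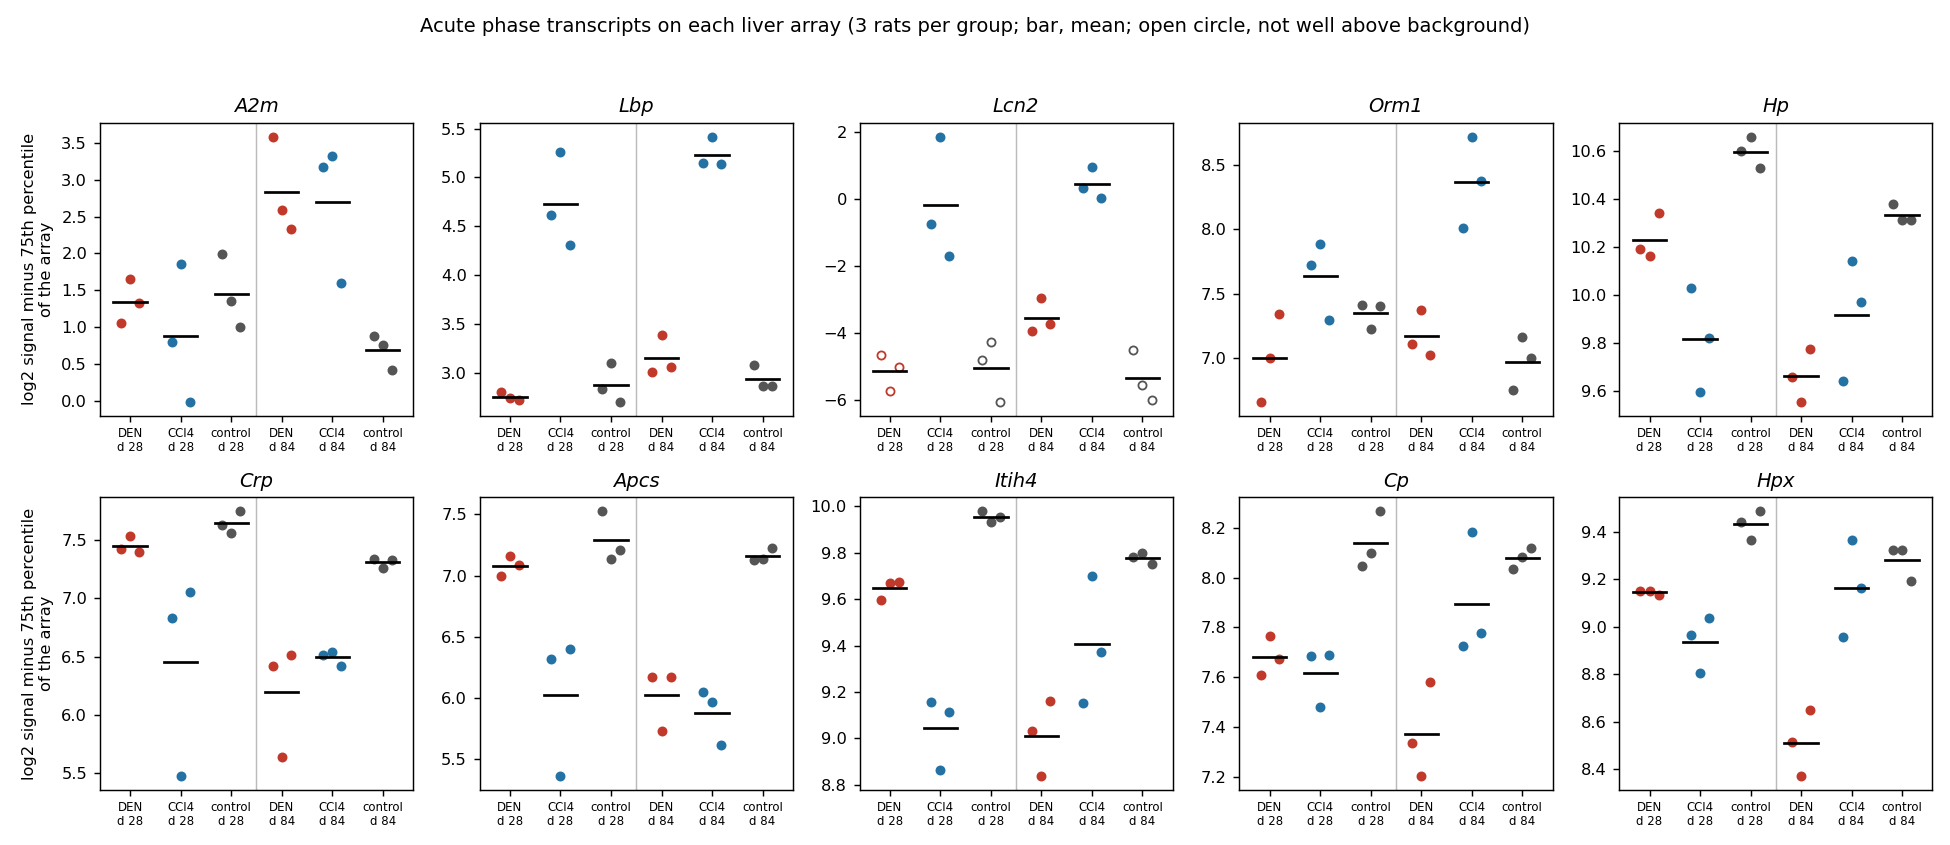
Level of each transcript (log2 signal minus the 75th percentile of the array, its own vertical scale per panel) on each of the 18 arrays, by group, with 3 rats per group. Bars are group means, and open circles are arrays where the probe was not well above background. Lbp and Lcn2 stand high in both CCl4 groups, A2m in both day 84 treated groups, and treated rats lie mostly below controls for Crp, Apcs, Itih4, Cp and Hpx in the lower row.

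With DEN for 28 days the changes of the 10 transcripts ran from -0.46 to -0.08, and 1 was called lower. CCl4 for 28 days split them into a rising pair and a falling majority. The day 84 livers added A2m to the risers with both compounds and Orm1 with CCl4. Against controls, DEN at day 28 raised 0 and lowered 1 of the 10 transcripts by limma, where 15% of all genes were called, 7.82% higher and 7.19% lower. At an unadjusted p under 0.05 it raised 0 and lowered 4. CCl4 at day 28 raised 2 and lowered 6, where 59.7% of all genes were called, 26.1% higher and 33.6% lower. DEN at day 84 raised 1 and lowered 6, where 52.7% were called, 21.6% higher and 31.1% lower. CCl4 at day 84 raised 4 and lowered 4, where 64.3% were called, 28% higher and 36.3% lower. The split between rises and falls depended on the scaling. With spike-in scaling, 0 rose and 0 fell with DEN at day 28, 4 rose and 0 fell with CCl4 at day 28, 4 rose and 0 fell with DEN at day 84, and 6 rose and 1 fell with CCl4 at day 84. In that order 33.3%, 78.9%, 71.3% and 60.5% of all genes were then called. Of those called genes 98.1%, 94.2%, 96.2% and 89% were higher. After quantile normalization, in the same order, 0 rose and 0 fell, 4 rose and 2 fell, 1 rose and 4 fell, and 6 rose and 1 fell. There 12%, 57%, 50% and 61% of all genes were called, of which 65%, 52.7%, 49% and 51% were higher. Whether the transcripts were called more often than other genes was not tested. The median change of the 10 was -0.25 for DEN and -0.55 for CCl4 at day 28, and -0.69 for DEN and -0.15 for CCl4 at day 84. The medians of all genes tested, given above for the same 4 comparisons, lay closer to 0. The 2 compounds were compared with the same controls at each day.

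**Figure D2:**
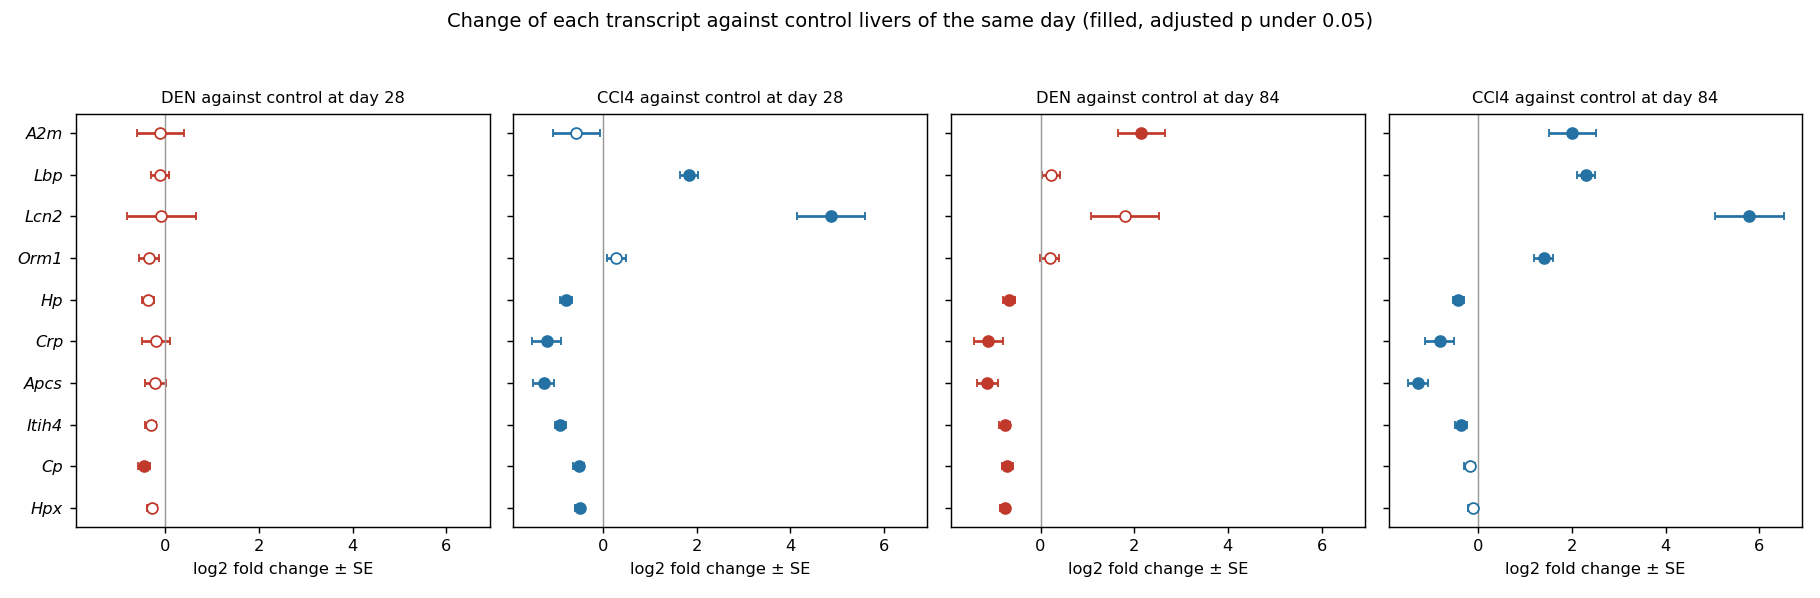
Log2 fold change with SE of each transcript, from left to right for DEN and CCl4 at day 28 and DEN and CCl4 at day 84, each against controls of that day (3 rats per group). Filled symbols have an adjusted p under 0.05. Lcn2 reaches 5.79 and Lbp 2.295 after 84 days of CCl4, and A2m is near 2 with both compounds at that day.

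Lcn2 and Lbp were the transcripts that CCl4 raised at both days. Lcn2 encodes lipocalin 2, which binds the iron carriers of bacteria and is made by hepatocytes and by neutrophils. Its level was -0.75, 1.85 and -1.70 in CCl4 rats at day 28, against -4.82, -4.29 and -6.08 in controls. At day 84 it was 0.32, 0.95 and 0.02 in CCl4 rats, against -4.52, -5.56 and -6.00 in controls. The groups did not overlap at either day, and 1 CCl4 rat at day 28 stood well above its 2 companions. Higher levels without overlap were seen in 26.1% of all genes tested at day 28 and 31% at day 84. The probe was not well above background on any control array, so the changes are given as bounds. Each compares group means, with every control array set to the higher of the probe's own signal and a floor. The floor was the lowest signal among probes well above background on that array. These bounds carry no spread and hold for the processed signal only. Lcn2 was at least 10.5-fold higher in CCl4 than in control livers at day 28 (limma adjusted p = 7.17e-05, measured means -0.20 and -5.06) and at least 18.3-fold higher at day 84 (adjusted p = 1.40e-05, means 0.43 and -5.36). Without CCl4 day 28 replicate 2 the bound at day 28 was at least 5.17-fold, and the fitted change was 3.84 ± 0.56 (SE) (adjusted p = 0.000101), against 4.86 ± 0.73 with it. After normexp background correction with an added offset of 50, which lifts dim signals and shrinks folds, the fitted changes lay under these bounds. They were still called, at 1.95 ± 0.47 (adjusted p = 0.00233) at day 28 and 2.48 ± 0.47 (adjusted p = 0.000332) at day 84.

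With DEN, the Lcn2 probe was well above background at day 84 and not at day 28. At day 28 the levels of -4.66, -5.75 and -5.03 in DEN rats overlapped those of the controls, and none was well above background, so no fold is given. At day 84 they were -3.94, -2.96 and -3.75 in DEN rats, all well above background and all above the 3 controls. Such a gap was seen in 26.3% of all genes tested. The bound was at least 1.16-fold higher, with group means of -3.55 in DEN and -5.36 in control rats, and the adjusted p of 0.0503 missed the threshold. The change was called with slide as a block (adjusted p = 0.0356) and with arrays of 1 slide per day (adjusted p = 0.0412). All control and DEN arrays of day 84 were on slide 2, so these settings altered the estimate of the spread and not the change itself. With normexp background correction the fitted change was -0.01 ± 0.47 (adjusted p = 0.983), and with spike-in scaling it was 2.51 ± 0.73 and called (adjusted p = 0.00625).

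Lbp encodes lipopolysaccharide-binding protein, which hands bacterial lipopolysaccharide to CD14. Levels were 4.61, 5.25 and 4.30 in CCl4 rats at day 28, against 2.84, 3.10 and 2.70 in controls. The day 84 levels were 5.14, 5.42 and 5.13 in CCl4 rats, against 3.08, 2.86 and 2.87 in controls. Every CCl4 rat lay more than 1 log2 unit above every control of its day. The change was 1.85 ± 0.19 (3.6-fold, adjusted p = 3.33e-06) at day 28 and 2.295 ± 0.19 (4.91-fold, adjusted p = 4.47e-07) at day 84. DEN rats read 2.81, 2.74 and 2.72 at day 28 and 3.01, 3.39 and 3.06 at day 84, and overlapped the controls. Their changes of -0.12 ± 0.19 and 0.22 ± 0.19 did not pass the test, and the 95% interval at day 84 was -0.19 to 0.63. With spike-in scaling the day 84 change was 0.92 ± 0.24 and was called (adjusted p = 0.00322). Lbp and Lcn2 followed each other over the 18 arrays with a Pearson r of 0.976, a description of arrays that share groups and scaling.

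Neutrophil markers were set beside Lcn2, since these cells store its protein. Of 10 markers, 9 were on the array and 4 could be tested, and Elane, Cxcr2, Mmp8 and Ltf were not well above background on any array. At day 28, 1 of the 4 rose and 0 fell with CCl4, and the summed linear level of the list was 1.17 to 1.78 in CCl4 and 0.998 to 1.64 in control rats. At day 84, 4 of the 4 rose with CCl4, with a sum of 1.99 to 4.27 in CCl4 and 1.19 to 1.28 in control rats. Csf3r, 1 of these 4, was not well above background on any control or DEN array. It could be tested only through CCl4 rats, where it was brighter, so its rise adds little to the count. S100a8 changed by 0.03 ± 0.32 (adjusted p = 0.939) at day 28 and by 1.32 ± 0.32 (adjusted p = 0.00247) at day 84. The sums of CCl4 and control rats overlapped at day 28 and did not at day 84. With CCl4, 59.7% of all genes were called at day 28 and 64.3% at day 84. The part of these cells in the Lcn2 levels was not tested at either day. With DEN, 0 of the 4 markers were called at either day by limma, and at an unadjusted p under 0.05 1 was higher at day 28 and 0 at day 84.

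A2m encodes alpha-2-macroglobulin, a broad protease inhibitor and carrier of cytokines. At day 84 its levels were 3.59, 2.58 and 2.33 in DEN rats and 3.17, 3.32 and 1.59 in CCl4 rats, against 0.88, 0.75 and 0.42 in controls. All treated rats lay above all controls, although 1 CCl4 rat reached only a middle level. At that day 26.3% of all genes tested were higher without overlap for DEN and 31% for CCl4. The change was 2.15 ± 0.50 (4.44-fold, adjusted p = 0.00287) with DEN and 2.01 ± 0.50 (4.04-fold, adjusted p = 0.00301) with CCl4. At day 28 the levels were 1.05, 1.66 and 1.32 in DEN rats and 0.79, 1.86 and -0.02 in CCl4 rats, against 2.00, 1.35 and 1.0 in controls. These groups overlapped, and the changes of -0.10 ± 0.50 and -0.57 ± 0.50 did not pass the test. The 2 further A2m probes rose at day 84 as well, by 2.68 and 2.27 with DEN and by 2.49 and 1.90 with CCl4, all called in the fit over 18679 probes.

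Orm1 encodes alpha-1-acid glycoprotein, which binds drugs and lipids in plasma. Levels at day 84 were 7.11, 7.38 and 7.03 in DEN rats and 8.01, 8.72 and 8.37 in CCl4 rats, against 6.75, 7.16 and 7.0 in controls. The CCl4 rats stood above all others of that day, and the DEN rats overlapped the controls. The change with CCl4 was 1.40 ± 0.21 (2.63-fold, adjusted p = 4.78e-05), and that with DEN was 0.20 ± 0.21 (adjusted p = 0.432). The DEN change was called with spike-in scaling, at 0.90 ± 0.22 (adjusted p = 0.00238). At day 28 levels were 6.66, 7.0 and 7.34 in DEN rats and 7.72, 7.89 and 7.30 in CCl4 rats, against 7.41, 7.23 and 7.41 in controls. Both groups overlapped the controls there. The CCl4 change at day 28 was 0.29 ± 0.21 (adjusted p = 0.239) and passed the test with other scalings, at 0.62 after quantile normalization (adjusted p = 0.0199) and 1.09 with spike-in scaling (adjusted p = 0.000458).

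Crp and Apcs, the short pentraxins, fell with both compounds. C-reactive protein and serum amyloid P component bind phosphocholine or sugars on microbes and damaged cells and activate complement. Crp levels were 6.83, 5.47 and 7.05 in CCl4 rats at day 28, against 7.63, 7.56 and 7.75 in controls. After 84 days they were 6.42, 5.64 and 6.52 in DEN rats and 6.51, 6.54 and 6.42 in CCl4 rats, against 7.34, 7.26 and 7.33 in controls. The 9 treated rats of these 3 groups all lay below the controls of their day. The same held for 34.6%, 38.6% and 40.8% of all genes tested in the 3 comparisons. The changes were -1.20 ± 0.31 (adjusted p = 0.00432) for CCl4 at day 28, -1.12 ± 0.31 (adjusted p = 0.0081) for DEN at day 84 and -0.82 ± 0.31 (adjusted p = 0.0321) for CCl4 at day 84. Without CCl4 day 28 replicate 2 the first of these was -0.70 and still called. The last call was lost when any 1 of its 6 arrays was left out, with changes of -0.84 to -0.78. Within the single slide that held all 3 controls and 1 CCl4 rat of day 84, this change was -0.80.

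Apcs levels were 6.32, 5.36 and 6.40 in CCl4 rats at day 28, against 7.53, 7.13 and 7.21 in controls. At day 84 they were 6.17, 5.73 and 6.17 in DEN rats and 6.05, 5.96 and 5.62 in CCl4 rats, against 7.13, 7.13 and 7.22 in controls. Again no treated rat of these groups reached the controls, as for the shares of all genes given for Crp. The changes were -1.27 ± 0.22 (adjusted p = 0.00027) for CCl4 at day 28, -1.14 ± 0.22 (adjusted p = 0.000904) for DEN at day 84 and -1.28 ± 0.22 (adjusted p = 0.000204) for CCl4 at day 84. With spike-in scaling Apcs stayed negative in these 3 comparisons, at -0.46, -0.43 and -0.73, with the last called (adjusted p = 0.00879), and Crp stayed negative but uncalled, at -0.40, -0.41 and -0.27. After 28 days of DEN both transcripts differed from controls by about -0.2 (-0.20 ± 0.31 for Crp and -0.21 ± 0.22 for Apcs), which did not pass the test.

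Hp, Cp and Itih4 each fell in 3 of the 4 comparisons with controls, and Hpx fell in 2. Haptoglobin and hemopexin capture free haemoglobin and haem, ceruloplasmin carries copper and oxidises iron, and Itih4 belongs to the inter-alpha-trypsin inhibitor heavy chains. Hp levels were 10.03, 9.60 and 9.82 in CCl4 rats at day 28, against 10.60, 10.66 and 10.53 in controls. The day 84 values were 9.66, 9.55 and 9.78 in DEN rats and 9.64, 10.14 and 9.97 in CCl4 rats, against 10.38, 10.31 and 10.31 in controls. None of these 9 treated rats overlapped its controls, and 34.6%, 38.6% and 40.8% of all genes tested lay lower without overlap there. Hp fell by 0.78 ± 0.12 with CCl4 at day 28 (adjusted p = 0.000101), by 0.68 ± 0.12 with DEN at day 84 (adjusted p = 0.000507) and by 0.42 ± 0.12 with CCl4 at day 84 (adjusted p = 0.00804). Within the single slide that held all 3 controls and 1 CCl4 rat of day 84, the last change was -0.70.

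Itih4 levels were 9.16, 8.87 and 9.11 in CCl4 rats at day 28, against 9.98, 9.94 and 9.95 in controls. By day 84 they were 9.03, 8.84 and 9.16 in DEN rats and 9.15, 9.70 and 9.37 in CCl4 rats, against 9.78, 9.80 and 9.75 in controls. The controls were tight, and 1 CCl4 rat at day 84 came close to them. Itih4 fell by 0.91 ± 0.12 with CCl4 at day 28 (adjusted p = 2.41e-05), by 0.77 ± 0.12 with DEN at day 84 (adjusted p = 0.000157) and by 0.37 ± 0.12 with CCl4 at day 84 (adjusted p = 0.0148). The last call was lost without CCl4 day 84 replicate 1, where the change was -0.24. Within the single slide, with 1 CCl4 rat of day 84, it was -0.63.

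Hpx levels were 8.96, 8.81 and 9.04 in CCl4 rats at day 28, against 9.44, 9.36 and 9.49 in controls. At day 84 they were 8.52, 8.37 and 8.65 in DEN rats and 8.96, 9.37 and 9.16 in CCl4 rats, against 9.32, 9.32 and 9.19 in controls. The DEN rats of day 84 were the lowest of the study, whereas the CCl4 rats of day 84 overlapped their controls. Hpx fell by 0.50 ± 0.10 with CCl4 at day 28 (adjusted p = 0.000716) and by 0.77 ± 0.10 with DEN at day 84 (adjusted p = 3.80e-05). The change with CCl4 at day 84 was -0.12 ± 0.10 (adjusted p = 0.316). Within a single slide, with 1 CCl4 rat of that day, it was -0.32.

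Cp was the 1 transcript called after 28 days of DEN. Its levels were 7.61, 7.77 and 7.67 in DEN rats and 7.69, 7.48 and 7.69 in CCl4 rats, against 8.05, 8.10 and 8.27 in controls. At day 84 they were 7.33, 7.20 and 7.58 in DEN rats and 7.72, 8.19 and 7.78 in CCl4 rats, against 8.03, 8.08 and 8.12 in controls. Only the CCl4 rats of day 84 overlapped controls. In the other 3 comparisons 25.8% (DEN day 28), 34.6% (CCl4 day 28) and 38.6% (DEN day 84) of all genes lay lower without overlap. Cp fell by 0.46 ± 0.12 with DEN at day 28 (adjusted p = 0.0243), by 0.52 ± 0.12 with CCl4 at day 28 (adjusted p = 0.00221) and by 0.71 ± 0.12 with DEN at day 84 (adjusted p = 0.000347). The DEN call at day 28 was lost without 4 of the 6 arrays in turn (DEN replicates 1 and 3, control replicates 2 and 3), with changes of -0.50 to -0.39. Hp, Hpx and Itih4 of DEN rats at day 28 also lay below all controls without overlap, by -0.37, -0.29 and -0.31, and missed the threshold with adjusted p of 0.0557, 0.066 and 0.0919. These calls differed with the settings for slide. All control and DEN arrays of day 28 were on slide 1, so these settings left the changes as they were. They altered the estimate of the spread and the adjustment, with 17.4% (slide as a block) and 15.8% (1 slide per day) of all genes called, against 15%. With slide as a block Hp (adjusted p = 0.0312) and Hpx (adjusted p = 0.0353) were called lower, and with arrays of 1 slide per day Hp (adjusted p = 0.0376), Hpx (adjusted p = 0.0351) and Itih4 (adjusted p = 0.0424) were. With Crp, 5 of the 10 transcripts lay below the controls without overlap in that comparison, as did 25.8% of all genes tested.

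The falls of these 4 transcripts depend on the scaling, as the plot of the 3 scalings shows. With spike-in scaling the change of Hp against control was 0.02 for CCl4 at day 28, 0.03 for DEN at day 84 and 0.13 for CCl4 at day 84, none called. Hpx turned to 0.30 (adjusted p = 0.0136) for CCl4 at day 28 and to 0.43 (adjusted p = 0.00207) for CCl4 at day 84, both called higher. After quantile normalization Hp was 0.05 for CCl4 at day 28, 0.04 for DEN at day 84 and 0.06 for CCl4 at day 84, and Hpx was 0.22 and 0.42 in the CCl4 comparisons and called higher in both. Cp kept a called fall under quantile normalization with DEN at day 84 (-0.46, adjusted p = 0.00145) and read -0.0043 ± 0.129 with spike-in scaling there. With CCl4 at day 84, Itih4 was called higher after quantile normalization (0.23, adjusted p = 0.00955) and Cp with spike-in scaling (0.37, adjusted p = 0.0228). The median of all genes moved by no more than 0.10 between the 75th percentile and quantile scalings. The rises of Lbp and Lcn2 with CCl4, of A2m at day 84 and of Orm1 with CCl4 at day 84 passed the test under both other scalings.

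**Figure D3:**
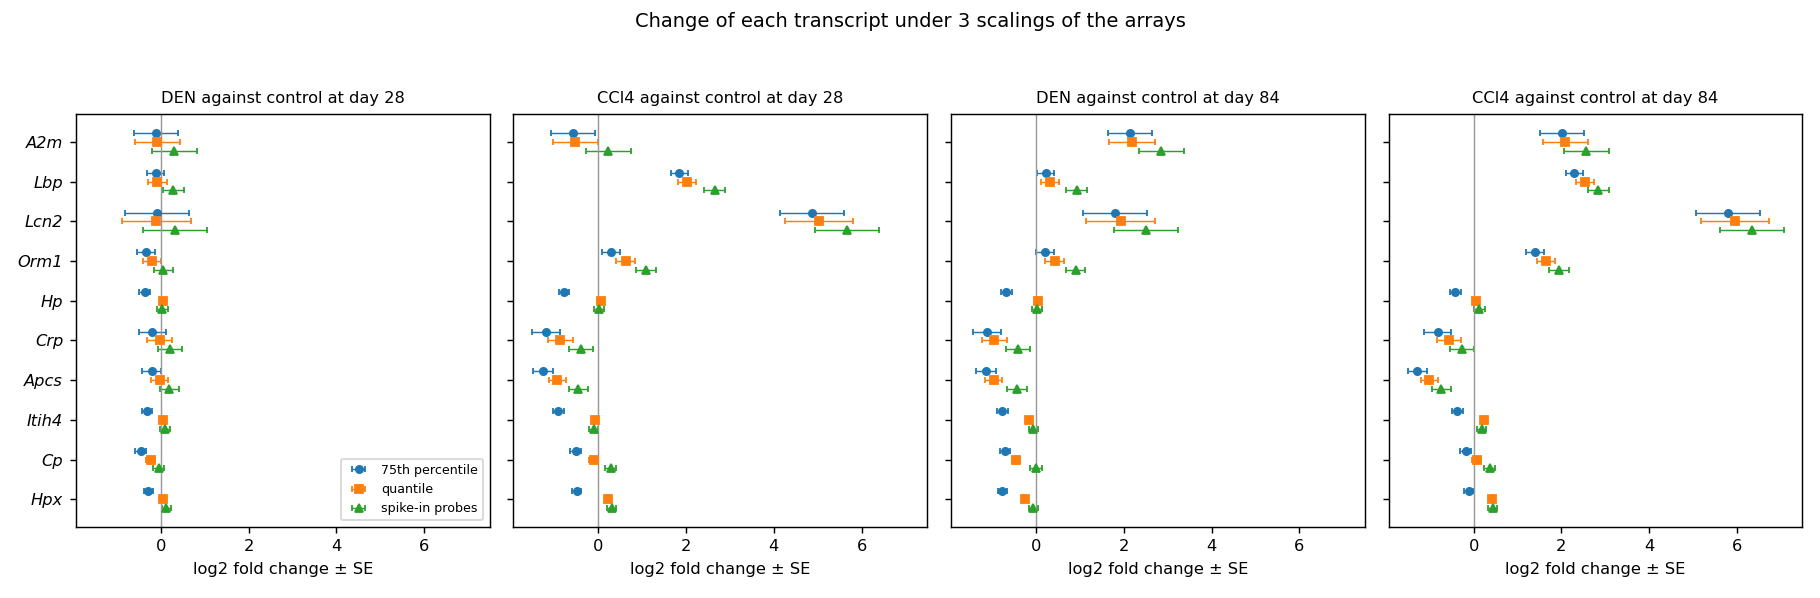
Log2 fold change with SE of each transcript against controls of the same day, in 4 comparisons, under 3 scalings of the arrays (circles, 75th percentile; squares, quantile; triangles, 8 spike-in probes). Lbp and Lcn2 with CCl4 and A2m at day 84 stay above 0 under each scaling shown, Crp and Apcs stay below 0 except for DEN at day 28, and Hp, Itih4, Cp and Hpx reach or cross 0.

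Cp was measured by 3 probes, and they parted. The further probe of the same RefSeq transcript fell with DEN, by 0.55 ± 0.09 at day 28 (adjusted p = 0.00173) and by 0.86 ± 0.09 at day 84 (adjusted p = 9e-06), and read -0.0005 ± 0.0919 with CCl4 at day 84. A probe designed on another RefSeq transcript of Cp rose with DEN, averaging 3.56 ± 0.02 in DEN and 2.93 ± 0.09 in control rats at day 28 and 3.42 ± 0.19 in DEN and 2.58 ± 0.10 in control rats at day 84 (SD, n = 3 rats per group). Its changes of 0.62 ± 0.14 (adjusted p = 0.0116) and 0.84 ± 0.14 (adjusted p = 0.000298) were opposite in sign to those of the brightest probe in the same livers. Its fit was adjusted over 18679 probes. With CCl4 it changed by -0.29 ± 0.14 (adjusted p = 0.0904) at day 28 and by 0.69 ± 0.14 (adjusted p = 0.000735) at day 84. The Cp results therefore hold for the transcript of the brightest probe only. Second probes of Hp, Crp and Itih4 had the same sign as the first in all 4 comparisons against control.

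**Figure D4:**
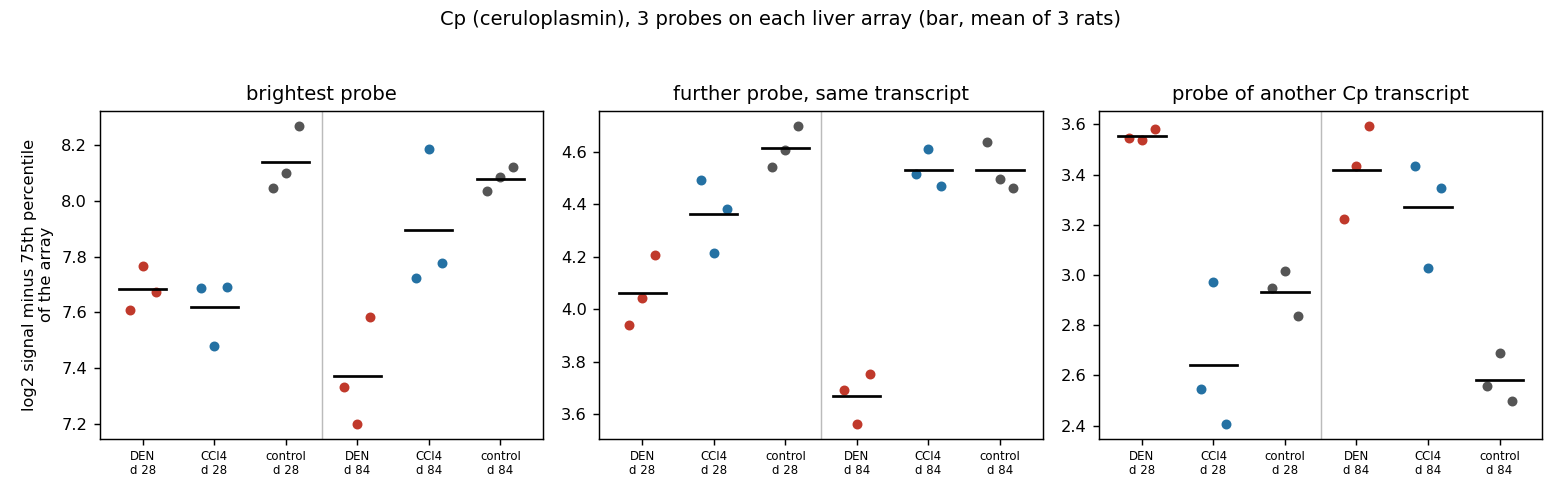
Level of 3 Cp probes (log2 signal minus the 75th percentile of the array, own vertical scale per panel) on the 18 arrays, by group, with means of 3 rats as bars. DEN rats lie below controls with the 2 probes on the left and above controls with the probe of another Cp transcript.

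Set directly against each other, the compounds differed most in Lcn2 and Lbp. At day 28, 3 transcripts were higher and 4 lower with CCl4 than with DEN, where 45.1% of all genes were called, 20.4% higher and 24.7% lower. Lcn2 was at least 11.5-fold higher (adjusted p = 0.000139, means -0.20 in CCl4 and -5.15 in DEN rats) and at least 5.67-fold higher without CCl4 day 28 replicate 2. Lbp was 1.97 ± 0.19 higher (adjusted p = 5.74e-06) and Orm1 was 0.64 ± 0.21 higher (adjusted p = 0.0212). Hp, Crp, Apcs and Itih4 were lower with CCl4, by -0.41 to -1.05. Without CCl4 day 28 replicate 2, 2 were higher and 2 lower, where 34.6% of all genes were called. At day 84, 6 were higher with CCl4 and 0 lower, where 34.3% of all genes were called, 18.5% higher and 15.8% lower. Lcn2 was 3.98 ± 0.73 higher (adjusted p = 0.000988), Lbp 2.08 ± 0.19 (adjusted p = 4.81e-06), Orm1 1.20 ± 0.21 (adjusted p = 0.000598) and Hpx 0.65 ± 0.10 (adjusted p = 0.000277), with smaller differences for Cp and Itih4. All DEN arrays of day 84 were on slide 2, as was 1 CCl4 array, and the other 2 CCl4 arrays were on slide 3. With slide as a block or with arrays of 1 slide per day, this comparison rests on the 1 CCl4 rat of slide 2. The 2 settings are thus the same contrast and not separate checks. The differences were then 0.35 for Cp and 0.14 for Itih4. In the fit over all 18 arrays A2m and Apcs did not pass the test at day 84, with intervals of -1.22 to 0.94 and -0.63 to 0.33 for CCl4 minus DEN. Doses, vehicles and compounds differed together, so the difference cannot be assigned to any of them.

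Between the days, the effect of a compound was compared through its difference from controls at day 84 minus that at day 28. For DEN, A2m gained 2.25 ± 0.71 (adjusted p = 0.0453) and Hpx lost 0.48 ± 0.14 (a change of -0.48, adjusted p = 0.0344), so 1 transcript was called in each direction where 16.1% of all genes were called, 7.64% higher and 8.41% lower. For CCl4, A2m gained 2.585 ± 0.71 (adjusted p = 0.0469) and Orm1 gained 1.11 ± 0.29 (adjusted p = 0.0381), so 2 were called higher and 0 lower, where 6.03% of all genes were called, 3.51% higher and 2.52% lower. These 4 calls were fragile. Leaving out each of 12 arrays in turn lost the DEN call of A2m 10 times and that of Hpx 9 times, and the CCl4 call of A2m 9 times and that of Orm1 10 times, with no change of sign. Control rats of day 84 and day 28 differed in 0 of the 10 transcripts by limma (adjusted p under 0.05, where 9.77% of all genes were called, 4.44% higher and 5.32% lower), with 0 also at an unadjusted p under 0.05. Even so, 6 of the 10 lay lower in the controls of day 84 than in those of day 28 without overlap, as did 21.6% of all genes tested. A2m was one of them, with a change of -0.76 ± 0.50 (adjusted p = 0.366), and this shift enters both A2m differences. Array slide follows day almost fully: all day 28 arrays but 1 were on slide 1, and slides 2 and 3 held the others, so day and slide cannot be told apart for control and DEN rats. With arrays of 1 slide per day only, which leaves 1 CCl4 rat at day 84, the CCl4 differences were 2.61 for A2m and 0.58 for Orm1. A group of 1 rat cannot separate a slide effect from the spread between rats.

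The 10 transcripts fell into sets when their levels were compared over the 18 arrays. Lbp and Lcn2 were closest (r = 0.976), followed by Hp and Itih4 (r = 0.963), Crp and Apcs (r = 0.942) and Cp and Hpx (r = 0.919), and Lcn2 and Apcs ran most strongly against each other (r = -0.85). These r values describe 18 arrays that share group means and scaling, and carry no test. Outside the list, the 2 tested genes most like Lcn2 were Lypd1 (r = 0.984) and Tagln (r = 0.98), and those most like Lbp were Lypd1 (r = 0.983) and Qsox1 (r = 0.982). Hp was most like Tf (r = 0.981) and Fgb (r = 0.98), which encode transferrin and the fibrinogen beta chain, and Itih4 was most like Tf (r = 0.977) and Cfb (r = 0.976). Apcs was most like Gjb1 (r = 0.985) and Cuta (r = 0.982), Crp like Lpgat1 (r = 0.964) and Serpina3c (r = 0.963), Hpx like F7 (r = 0.953) and Apoc4 (r = 0.946), and Cp like Foxo4 (r = 0.923) and Usp8 (r = 0.922). Orm1 (Slc41a3, r = 0.92, and Fzd2, r = 0.905) and A2m (Akr1b7, r = 0.839, and Zfp202, r = 0.832) had looser partners.

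Other positive acute phase proteins moved mainly with the fallers. Of 29 tested, 2 rose and 6 fell with DEN at day 28, 3 rose and 20 fell with CCl4 at day 28, 3 rose and 19 fell with DEN at day 84, and 7 rose and 18 fell with CCl4 at day 84. Their median changes in that order were -0.28, -0.75, -0.66 and -0.41. Calls covered 15%, 59.7%, 52.7% and 64.3% of all genes, with 7.19%, 33.6%, 31.1% and 36.3% lower. Fga and Fgb, the fibrinogen alpha and beta chains, fell by 0.75 ± 0.11 and 0.89 ± 0.11 with CCl4 at day 28, and C3, the central complement component, fell by 0.88 ± 0.10. The risers were led by Timp1, an inhibitor of matrix metalloproteinases, which averaged 5.64 ± 0.66 in CCl4 and 2.00 ± 0.23 in control rats at day 28 (SD, n = 3 rats per group). Vnn1 and Kng1 are named after their values were seen. Vnn1, a pantetheinase, rose with CCl4 by 3.20 ± 0.30 at day 28 and 2.25 ± 0.30 at day 84 and changed by -0.31 ± 0.30 with DEN at day 84. Kng1, a kininogen, was called in 1 of these 4 comparisons, rising with CCl4 at day 84 by 1.32 ± 0.18 (adjusted p = 2.85e-05), and its near copy Kng2 may share its signal. With spike-in scaling 7 of the 29 rose and 5 fell with CCl4 at day 28, and 10 rose and 5 fell with CCl4 at day 84, where 78.9% and 60.5% of all genes were called. The prevalence of fallers in this list therefore depends on the scaling.

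Negative acute phase proteins fell in both CCl4 groups and in DEN rats at day 84. Of 16 tested, 0 rose and 0 fell with DEN at day 28 by limma (0 and 6 at an unadjusted p under 0.05), 0 rose and 16 fell with CCl4 at day 28, and 0 rose and 15 fell with either compound at day 84. Their median changes in the same order were -0.31, -1.23, -0.81 and -0.86. Lower calls made up 7.19%, 33.6%, 31.1% and 36.3% of all genes in these comparisons. Alb, serum albumin, fell by 1.08 ± 0.12 with CCl4 at day 28 and Ttr, the thyroxine carrier transthyretin, by 0.92 ± 0.14. Both are also among the hepatocyte markers above. Hp, Hpx and Cp, which belong to the positive class, fell by 0.78, 0.50 and 0.52 in the same livers. With spike-in scaling 1 rose and 9 fell with CCl4 at day 28, and 1 rose and 4 fell with DEN at day 84, where 78.9% and 71.3% of all genes were called.

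**Figure D5:**
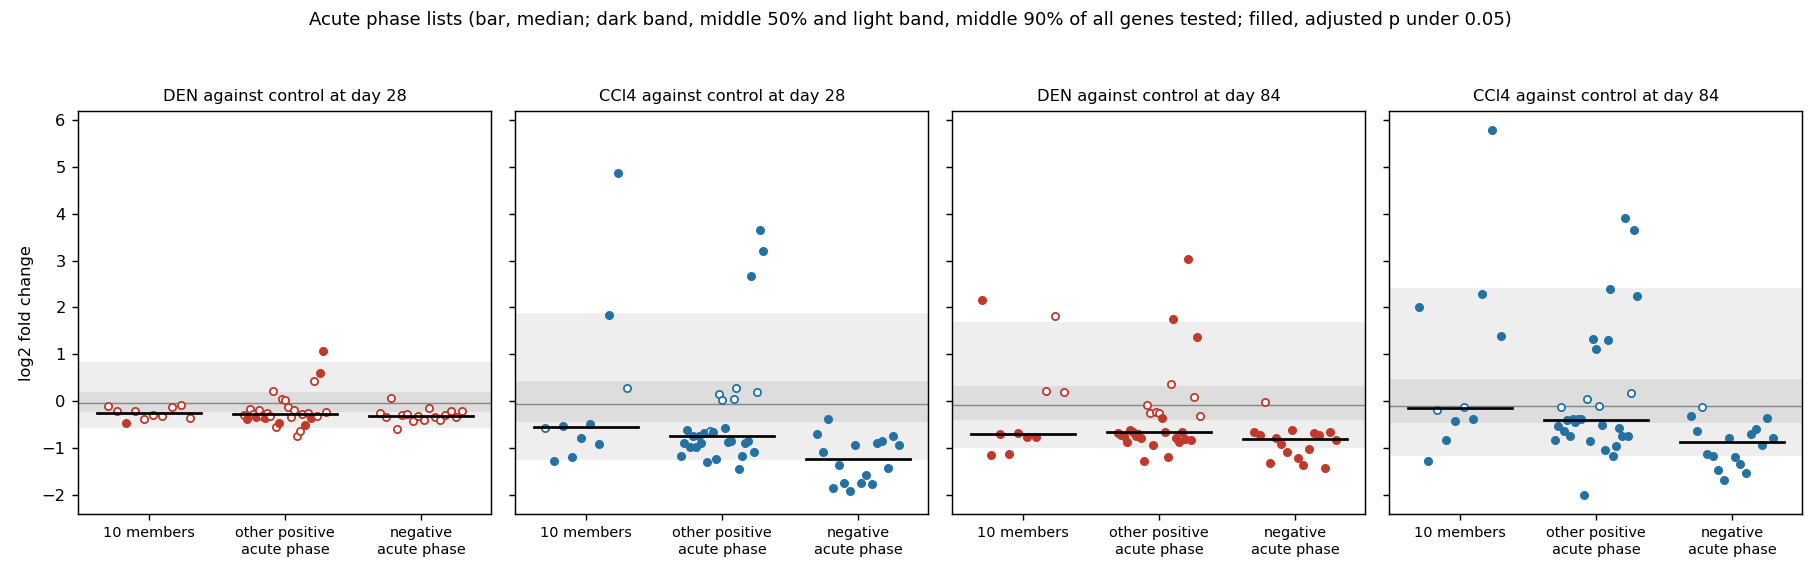
Log2 fold change against controls of the same day for the 10 transcripts, 29 other positive and 16 negative acute phase proteins, in 4 comparisons. Points are genes (filled, adjusted p under 0.05), bars are list medians, and the dark and light bands hold the middle 50% and 90% of all 10914 genes tested. After CCl4 the positive lists spread to both sides, whereas the negative list lies below 0.

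Genes of the interleukin-6 pathway changed in both directions. Of 21 tested, 2 rose and 4 fell with DEN at day 28, 3 rose and 11 fell with CCl4 at day 28, 1 rose and 10 fell with DEN at day 84, and 4 rose and 10 fell with CCl4 at day 84, with medians of -0.05, -0.38, -0.29 and -0.56. The shares of all genes called were 15%, 59.7%, 52.7% and 64.3% in that order. Whether this pathway was called more often than other genes was not tested. Il6r, the interleukin-6 receptor, averaged 1.075 ± 0.59 in CCl4 and 3.69 ± 0.16 in control rats at day 28 (SD, n = 3 rats per group), and fell by 2.61 ± 0.28 (adjusted p = 5.41e-06), and its partner Il6st fell by 0.61 ± 0.09. Cebpb and Hnf4a, transcription factors of hepatocyte genes, fell in all 4 comparisons, Cebpb by 1.67 ± 0.20 and Hnf4a by 1.47 ± 0.13 with CCl4 at day 28. Hnf4a is also among the hepatocyte markers above. Pias3, an inhibitor of STAT3, rose in all 4, most with DEN at day 28 (1.53 ± 0.14, adjusted p = 9.77e-06). With spike-in scaling 7 of the 21 rose and 1 fell with DEN at day 28, and 10 rose and 5 fell with CCl4 at that day. At day 84, 10 rose and 0 fell with DEN, and 8 rose and 5 fell with CCl4. In that order 33.3%, 78.9%, 71.3% and 60.5% of all genes were then called. After quantile normalization more fell than rose in each of the 4 comparisons. The prevalence of falls in this list therefore depends on the scaling.

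Genes of the interleukin-1, tumour necrosis factor and NF-kappaB pathway showed no common direction. Of 18 tested, 3 rose and 2 fell with DEN at day 28, 5 rose and 4 fell with CCl4 at day 28, 2 rose and 6 fell with DEN at day 84, and 6 rose and 6 fell with CCl4 at day 84, with medians of 0.05, -0.04, -0.13 and 0.12. Among all genes, 15%, 59.7%, 52.7% and 64.3% were called in these comparisons, and an excess of calls in the list was not tested. Cd14, the receptor that takes lipopolysaccharide from Lbp, averaged 0.88 ± 0.29 in DEN and 3.93 ± 0.28 in control rats at day 28 (SD, n = 3 rats per group), and fell by 3.05 ± 0.20 (adjusted p = 1.84e-07) in livers whose Lbp change did not pass the test. Nfkbia, the inhibitor of NF-kappaB, fell in all 4 comparisons, by 1.33 ± 0.17 with CCl4 at day 28. Tnf rose with CCl4 by 0.87 ± 0.19 at day 28 and 0.83 ± 0.19 at day 84. With spike-in scaling 15 rose and 0 fell with CCl4 at day 28, where 78.9% of all genes were called, so the direction of this list too follows the scaling.

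Partners of Hp, Hpx and Cp in haem and iron handling were also read. Of 16 tested, 1 rose and 4 fell with DEN at day 28, 0 rose and 9 fell with CCl4 at day 28, 3 rose and 8 fell with DEN at day 84, and 5 rose and 9 fell with CCl4 at day 84, with medians of -0.30, -0.57, -0.50 and -0.40. Beside these counts, 15%, 59.7%, 52.7% and 64.3% of all genes were called. The direction of this list depended on the scaling. With spike-in scaling 3 rose and 1 fell with DEN at day 28, and 6 rose and 2 fell with CCl4 at that day. At day 84, 6 rose and 2 fell with DEN, and 6 rose and 4 fell with CCl4. All genes called then made up 33.3%, 78.9%, 71.3% and 60.5% in that order. Quantile normalization left more fallers than risers in each comparison. Hmox1, which degrades haem, rose at day 84 by 0.44 ± 0.15 with DEN and 0.38 ± 0.15 with CCl4. Tfrc, the transferrin receptor, rose at day 84 by 1.11 ± 0.21 with DEN and 1.12 ± 0.21 with CCl4. Lrp1, the receptor that clears hemopexin with its haem, fell in all 4 comparisons, by 1.19 ± 0.16 with CCl4 at day 28. Hamp, which encodes the iron hormone hepcidin and is named here after its values were seen, fell by 2.01 ± 0.50 (adjusted p = 0.00307) with CCl4 at day 84.

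Markers of other cells moved in the treated livers with both compounds. Of 7 stellate cell and myofibroblast markers tested, 0 changed with DEN at day 28, 5 rose with CCl4 at each day, and 2 rose and 1 fell with DEN at day 84. Their summed linear level was 94.3 to 167 in CCl4 and 28.2 to 51.8 in control rats at day 28, and 94.1 to 154 in CCl4 and 23.7 to 28 in control rats at day 84. Of 11 macrophage markers, 2 rose and 0 fell with DEN and 4 rose and 4 fell with CCl4 at day 28, and 2 rose and 1 fell with DEN and 6 rose and 3 fell with CCl4 at day 84. Their sum was 193 to 203 in DEN, 120 to 145 in CCl4 and 159 to 207 in control rats at day 28, and 110 to 147 in DEN, 135 to 163 in CCl4 and 165 to 182 in control rats at day 84. Of 5 cholangiocyte markers, at day 28 0 rose for DEN and 3 for CCl4, and at day 84 4 rose for DEN and 5 for CCl4, with 0 falling. Of 9 lymphocyte markers, 4 rose and 0 fell with DEN and 4 rose and 1 fell with CCl4 at day 28, and 0 rose and 1 fell with DEN and 4 rose and 2 fell with CCl4 at day 84. The 1 adipocyte marker tested, Fabp4, was called higher in all 4 comparisons and was not well above background on any control array of day 84, and Adipoq was not well above background on any array. The 2 pancreatic acinar markers tested, Cpa1 and Cela1, were not well above background on any control array and could be tested only through treated groups. At day 84 Cpa1 was well above background in DEN and not in CCl4 rats, and Cela1 in CCl4 and not in DEN rats. With each compound 1 of them was called higher at that day, so this is no shared rise. The summed level of the 5 on the array was 0.845 to 3.31 in DEN, 0.123 to 0.2 in CCl4 and 0.116 to 0.125 in control rats of day 84. These levels moved beside Lcn2, Lbp, A2m and Timp1 in the same livers, and their part in those results was not tested.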

How the data were processed

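RNA of 18 rat livers was hybridised to one-colour Agilent arrays, 1 rat per array. Per the file headers, the authors deposited spot intensities from Agilent Feature Extraction 10.7.1.1, whose processed signal is background-corrected; steps before it are not given in the sources used here. The authors also deposited a value table, which is a ratio of the processed signal to 1 constant per array and was used as an alternative.

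The log2 processed signal minus the 75th percentile of the array was the level of a probe. Control spots (1439 of 62976) were left out. Probes were matched to rat genes by RefSeq accession (28206 of 61537 probes, 15645 genes). A probe was kept if some group had it well above background on each of its 3 arrays (18679), and the brightest was taken per gene (10914 genes). Fits used limma 3.58.1 (lmFit, eBayes) in R 4.3.3 with 6 group means and Benjamini-Hochberg adjustment, threshold 0.05, and were tested on simulated data. No spot was saturated (0). From 47.2% to 57% of probes per array were well above background, and the number of arrays limits the precision. Groups came from sample labels.

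The members and the gene and marker lists were chosen with earlier results of these data known. Genes named from a list are its first 2 measured genes and up to 4 called genes per comparison with the smallest adjusted p, and exceptions are stated. The neighbours of a member are the 2 tested genes with the highest Pearson r. Same-numbered arrays did not in general deviate together, with a median r of -0.00425 over 45 pairs (-0.227 to 0.433). Arrays of other numbers had a median of -0.00417 over 90 pairs (-0.398 to 0.205), so the highest r was in a same-numbered pair. Replicate numbers were not used for pairing in the main fit. Alternatives covered background correction, filters, quantile, spike-in and median scaling, the deposited table, probe summary, slides, replicate block, groups in the fit and each array left out. Chosen after seeing the data were 1 slide per day, the fit over all probes and the Lcn2 bounds without 1 array. The labels give separate rats, and p-values measure the spread between them.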

Additional observations from a re-analysis of the deposited data

Results flagged for a closer look

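The effects of the compounds on 3 of the 10 transcripts differed between the days by the interaction test in limma. For each compound 2 of the 10 were called, where 16.1% of all genes were called for DEN and 6.03% for CCl4. The DEN effect on A2m was larger at day 84 than at day 28 by 2.25 ± 0.71 log2 (adjusted p = 0.0453), and that of CCl4 by 2.585 ± 0.71 (adjusted p = 0.0469). The DEN effect on Hpx changed by -0.48 ± 0.14 (adjusted p = 0.0344), and the CCl4 effect on Orm1 by 1.11 ± 0.29 (adjusted p = 0.0381). All 4 adjusted p lie close to the threshold, and array slide changed with day. Each call was lost in 9 or 10 of the 12 fits that left out 1 array. In the limma fit over 18679 probes, 1 further A2m probe missed the threshold for DEN (adjusted p = 0.0526) and CCl4 (adjusted p = 0.0833). The other further probe passed for both (adjusted p = 0.0309 and 0.0359). The brightest probe passed there for DEN (adjusted p = 0.049) and missed for CCl4 (adjusted p = 0.053).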

How the results depend on the processing

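The rises of Lbp and Lcn2 with CCl4 at both days, of A2m with both compounds at day 84 and of Orm1 with CCl4 at day 84 kept their direction and their call under every alternative run, except that Lcn2 was not measured with probes well above background on all arrays. With slide as a block or 1 slide per day, the CCl4 results of day 84 rest on 1 CCl4 rat. Leaving out single arrays gave 1.58 to 2.06 and 2.20 to 2.37 for Lbp at day 28 and day 84. The results of the other transcripts depended on the scaling, and the cause was not tested. Over all 90 changes (10 transcripts, 9 comparisons) the sign turned in 18 with quantile normalization, 22 with spike-in scaling, 7 with slide as a block and 4 with 1 slide per day; those against control and those called in the report follow. After quantile normalization the sign turned for Hp (at day 28 0.047 for DEN and 0.049 for CCl4, at day 84 0.044 for DEN and 0.058 for CCl4, and 0.0029 for CCl4 against DEN at day 28), Hpx (at day 28 0.040 for DEN and 0.22 for CCl4, and 0.42 with CCl4 at day 84), Itih4 (0.061 with DEN at day 28, 0.23 with CCl4 at day 84) and Cp (0.065 with CCl4 at day 84). With spike-in scaling it turned for DEN at day 28 in A2m (0.30), Lbp (0.29), Lcn2 (0.32), Orm1 (0.058), Hp (0.035), Crp (0.21), Apcs (0.19), Itih4 (0.10) and Hpx (0.12), for CCl4 at day 28 in A2m (0.23), Hp (0.017), Cp (0.28) and Hpx (0.30), for DEN at day 84 in Hp (0.028), and for CCl4 at day 84 in Hp (0.13), Itih4 (0.18), Cp (0.37) and Hpx (0.43). Normexp turned Hpx with CCl4 (0.071) and Lcn2 with DEN (-0.014) at day 84, and the mean of all probes turned Cp with CCl4 at day 84 (0.17). Leaving out single arrays turned the uncalled changes of 2 transcripts against control, both with DEN at day 28, in the ranges -0.33 to 0.17 for A2m and -0.59 to 0.30 for Lcn2.

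The number of the 10 transcripts called for DEN at day 28 (1 in the report) was 4 with 1 slide per day, 3 with slide as a block, 2 with median scaling, 2 with probes well above background on all arrays, 4 with only the groups compared, and 0 with quantile or spike-in scaling. The shares of all genes called were 15.8%, 17.4%, 17.6% and 18% with the first 4, 12% with quantile and 33.3% with spike-in scaling. The CCl4 difference between days (2) became 0 with no filter, only the groups compared and spike-in scaling, 1 with quantile normalization and 4 with normexp. The share of all genes called was 2.54% with no filter, 2.76% with spike-in scaling, 5.95% with quantile normalization and 10.6% with normexp. With 1 slide per day or slide as a block this difference rests on 1 CCl4 rat of day 84. The DEN difference between days (2) became 0 with no filter, 5 with only the groups compared and 1 with spike-in scaling. For it 7.77% of all genes were called with no filter and 7.81% with spike-in scaling. With spike-in scaling 4 were called for CCl4 at day 28, all higher (Lbp, Lcn2, Orm1 and, lower in the report, Hpx), against 8 in the report, and 4 for DEN at day 84, all higher (A2m, Lbp, Lcn2 and Orm1), against 7, of which A2m was one. In these 2 comparisons 78.9% and 71.3% of all genes were called with that scaling. Only the groups compared gave 4, against 7, for CCl4 against DEN at day 28. Leaving out single arrays gave 0 to 1 for DEN and 8 to 8 for CCl4 at day 28, 7 to 8 for DEN and 6 to 8 for CCl4 at day 84, 4 to 7 and 5 to 7 for CCl4 against DEN at day 28 and day 84, and 0 to 3 for each difference between days. Beside these ranges, the fit over all arrays called 15% (DEN) and 59.7% (CCl4) of all genes at day 28, and 52.7% and 64.3% at day 84. It called 45.1% and 34.3% for CCl4 against DEN at day 28 and day 84, and 16.1% (DEN) and 6.03% (CCl4) for the differences between days. With the replicate block 8 were called for DEN at day 84, Lcn2 being the added one, against 7 without it, where 52.1% of all genes were called. The count in each other comparison was that of the report. Signals near background, those of Lcn2 outside the CCl4 groups in particular, limit what can be said of size.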
